A study of Homo sapiens with 16 samples.

Results

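The 10 genes described here encode the Ragulator complex (LAMTOR1, LAMTOR2, LAMTOR3, LAMTOR4 and LAMTOR5), the Rag GTPase RRAGA, the small GTPase RHEB, and the kinase MTOR with its mTORC1 partners RPTOR and MLST8. They were taken by name, and all 10 were found in the table of 18991 genes and among the 12517 that passed the filter on low counts. The libraries came from MOLM13, an established human acute myeloid leukemia cell line, transduced with Cas9 and kept under blasticidin, then transduced with a guide RNA, selected with puromycin and lysed at 14 days. There were 4 groups of 4 libraries: polysomal RNA and total RNA from cells with a guide against YBX1 (sgYBX1), and polysomal RNA and total RNA from cells with a non-targeting guide (sgLUC). Cells of all 4 groups carried Cas9. The sgYBX1 libraries all came from 1 guide, and the cells were selected populations, not clones. The study describes the replicates as separate cultures, and whether each was transduced on its own is not given in the sources used here.

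mTORC1 is a protein kinase complex that is active on the surface of the lysosome, where it promotes protein synthesis and cell growth when amino acids and growth factors are present. Ragulator is a scaffold of small proteins fixed to the lysosomal membrane. It holds the Rag GTPases, which bind RPTOR and bring mTORC1 to the lysosome when amino acids are sufficient, and RHEB in its GTP-bound form then activates the kinase. YBX1 is a cold-shock domain protein that binds mRNA. Polysomal RNA is the RNA recovered from the heavy part of a sucrose gradient, where mRNAs carry several ribosomes. Each value below is therefore an mRNA level, and protein was not measured in these files.

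The coding sequences of 4 Ragulator subunits are shown first because mRNAs for parts of the same complex differed most in how they stood in polysomal RNA. They were read from GENCODE v29 transcripts (build GRCh38), the first 300 coding bases of each, with the start codon in capitals and, for LAMTOR4, whose whole coding sequence is 300 bases, the stop codon as well. LAMTOR1 (chr11:72085895-72103387, minus strand) anchors the complex in the lysosomal membrane, and its coding sequence has 486 bases. LAMTOR2 (chr1:156054752-156058510, plus strand) and LAMTOR3 (chr4:99878336-99894490, minus strand) form a dimer, with coding sequences of 378 and 375 bases. LAMTOR4 (chr7:100148907-100155944, plus strand) forms another dimer with LAMTOR5.
LAMTOR1: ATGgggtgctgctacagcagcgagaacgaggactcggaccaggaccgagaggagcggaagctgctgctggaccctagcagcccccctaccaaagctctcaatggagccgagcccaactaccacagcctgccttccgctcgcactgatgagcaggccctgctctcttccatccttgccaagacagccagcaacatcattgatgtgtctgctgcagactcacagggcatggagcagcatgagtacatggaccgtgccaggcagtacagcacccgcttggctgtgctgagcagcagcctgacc
LAMTOR2: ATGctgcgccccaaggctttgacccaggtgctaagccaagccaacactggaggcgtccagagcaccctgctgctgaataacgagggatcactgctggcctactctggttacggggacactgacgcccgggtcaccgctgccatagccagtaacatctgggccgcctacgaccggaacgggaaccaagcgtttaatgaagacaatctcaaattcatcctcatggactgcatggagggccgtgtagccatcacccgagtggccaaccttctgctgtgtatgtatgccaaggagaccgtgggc
LAMTOR3: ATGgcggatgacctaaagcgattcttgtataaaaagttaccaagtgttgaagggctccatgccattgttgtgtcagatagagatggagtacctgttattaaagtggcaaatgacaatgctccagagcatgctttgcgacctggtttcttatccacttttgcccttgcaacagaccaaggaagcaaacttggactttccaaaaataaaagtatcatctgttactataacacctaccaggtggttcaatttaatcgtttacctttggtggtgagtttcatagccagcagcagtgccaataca
LAMTOR4: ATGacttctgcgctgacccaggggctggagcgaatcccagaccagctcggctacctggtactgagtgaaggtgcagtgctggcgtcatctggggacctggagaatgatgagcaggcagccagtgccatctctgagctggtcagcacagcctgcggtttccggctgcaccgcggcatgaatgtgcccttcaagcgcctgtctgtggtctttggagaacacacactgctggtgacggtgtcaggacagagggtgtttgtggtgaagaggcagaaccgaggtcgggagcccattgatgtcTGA

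The stretches printed for LAMTOR1, LAMTOR2 and LAMTOR4 held 60.7%, 58.0% and 59.3% G and C, and that of LAMTOR3 held 41.7%. The other genes lie at chr1:110401249-110407942 (LAMTOR5), chr9:19049395-19050983 (RRAGA), chr7:151466012-151520120 (RHEB), chr1:11106535-11262507 (MTOR), chr17:80544819-80966371 (RPTOR) and chr16:2204248-2209416 (MLST8). Their coding sequences spanned 522 bases for LAMTOR5, 942 for RRAGA, 555 for RHEB, 7650 for MTOR, 4008 for RPTOR and 981 for MLST8.

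Counts summed to 38.3 to 66.2 M per library. Levels are TMM-scaled CPM (counts relative to the effective library size), given ± SD over 4 libraries, and changes are edgeR log2 fold changes ± SE. Adjusted p-values are Benjamini-Hochberg values over the 12517 genes, and genes under 0.05 are said to be called. TMM scaling takes a trimmed mean of the log ratios over genes as no change, so a shift of all polysomal mRNAs in the same direction cannot be seen. Replicates differed more in polysomal RNA (biological coefficient of variation 0.188) than in total RNA (0.0463). Marker sums are an exception, since they are scaled to library totals alone, without TMM factors. Those factors were 1.35 to 1.43 in total RNA and 0.667 to 0.798 in polysomal RNA. Marker sums therefore cannot be set against the TMM-scaled levels, or between the fractions. All 8 markers of the myeloid line were detected, with a summed level of 1840 to 2004 CPM in total RNA. In polysomal RNA they summed to 611 to 695 CPM with sgYBX1, against 787 to 885 CPM with sgLUC. Markers of erythroid cells and fibroblasts summed to at most 0.214 and 0.856 CPM in any library. The lists for T cells, B cells and epithelial cells reached 4.96, 16.1 and 29.1 CPM, each highest in polysomal RNA, and their part in the results was not tested. YBX1 mRNA, the targeted gene, was 519 ± 23.3 CPM in sgYBX1 total RNA, against 887 ± 21.2 CPM in sgLUC total RNA (log2 fold change -0.76 ± 0.03, edgeR adjusted p = 1.25e-11), and 645 ± 17.1 CPM against 875 ± 76.1 CPM in polysomal RNA (-0.43 ± 0.11, adjusted p = 0.00604). In bulk libraries fewer cells with YBX1 mRNA and less YBX1 mRNA per cell cannot be told apart, and this holds for every gene below.

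In polysomal RNA of knockout cells, mRNAs for part of Ragulator and for RHEB were lower. LAMTOR1 fell to 57.2% of its sgLUC level, LAMTOR5 to 64.3%, LAMTOR3 to 66.5% and RHEB to 76.7%. The mRNAs for LAMTOR2, LAMTOR4, RRAGA, MTOR, RPTOR and MLST8 did not pass the test. This gives 4 of 10 genes called lower and 0 called higher, where 9.28% of all tested genes were called lower and 11.6% higher (20.9% in either direction). The median log2 fold change was -0.31 over the 10 genes and -0.59 over the 5 Ragulator subunits, with -0.02 over all tested genes. The comparison asks which mRNAs stood at another level in the polysomes once YBX1 was targeted.

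LAMTOR1, the membrane anchor, had 23.6, 23.3, 22.9 and 24.2 CPM in sgYBX1 polysomal RNA, against 39.6, 49.3, 33.9 and 42.7 CPM in sgLUC polysomal RNA. Every sgYBX1 library was below every sgLUC library, with a coefficient of variation of 2.28% among the sgYBX1 libraries and 15.6% among the sgLUC libraries. The log2 fold change was -0.81 ± 0.13 (edgeR adjusted p = 6.53e-05), which placed LAMTOR1 at the 3.68th percentile of all tested genes. In each of 15 alternative analyses it was called lower, with changes between -0.97 and -0.70.

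LAMTOR5 had 54.3, 45.4, 46.9 and 39.7 CPM in sgYBX1 polysomal RNA, against 97.2, 56.8, 51.0 and 86.2 CPM in sgLUC polysomal RNA. The groups overlapped, since sgYBX1 replicate 1 was above sgLUC replicate 3, and the sgLUC libraries formed a high pair and a low pair. The change was -0.64 ± 0.16 (adjusted p = 0.00391), and LAMTOR5 was called lower in all 15 alternatives. Its annotated exons share 418 bases (17.5% of its exon length) with LAMTOR5-AS1 on the opposite strand. The library kit does not mark strand, so reads of the pair cannot be told apart.

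LAMTOR3, the partner of LAMTOR2, had 5.59, 6.25, 3.99 and 4.59 CPM in sgYBX1 polysomal RNA, against 7.99, 8.41, 6.68 and 7.92 CPM in sgLUC polysomal RNA. The groups did not overlap, and the values rest on 125 to 249 counts per sgYBX1 library and 230 to 326 per sgLUC library. Its change of -0.59 ± 0.20 (adjusted p = 0.0320) was called in 10 of 15 alternatives. It was not called when sgYBX1 replicate 3 or 4, or sgLUC replicate 1, 2 or 4, was left out, with adjusted p between 0.0553 and 0.129.

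RHEB, which binds GTP and switches the kinase on, had 21.5, 21.3, 19.5 and 18.7 CPM in sgYBX1 polysomal RNA, against 29.7, 22.9, 25.8 and 28.1 CPM in sgLUC polysomal RNA. Here too the groups did not overlap, although sgLUC replicate 2 was close to the sgYBX1 libraries. The change was -0.38 ± 0.13 (adjusted p = 0.0376). It was called in 9 of 15 alternatives, with the call lost without a filter on low counts (adjusted p = 0.0615) and when sgYBX1 replicate 2, 3 or 4, or sgLUC replicate 1 or 4, was left out (0.0699 to 0.129). Groups that did not overlap were thus seen for LAMTOR1, LAMTOR3 and RHEB, 3 of 10 genes, all lower, where 10.3% of all tested genes were lower without overlap and 11.8% were higher. Several processed pseudogenes of LAMTOR3, LAMTOR5 and RHEB are annotated, and reads that the counting could assign to either copy make these levels less certain.

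**Figure D1:**
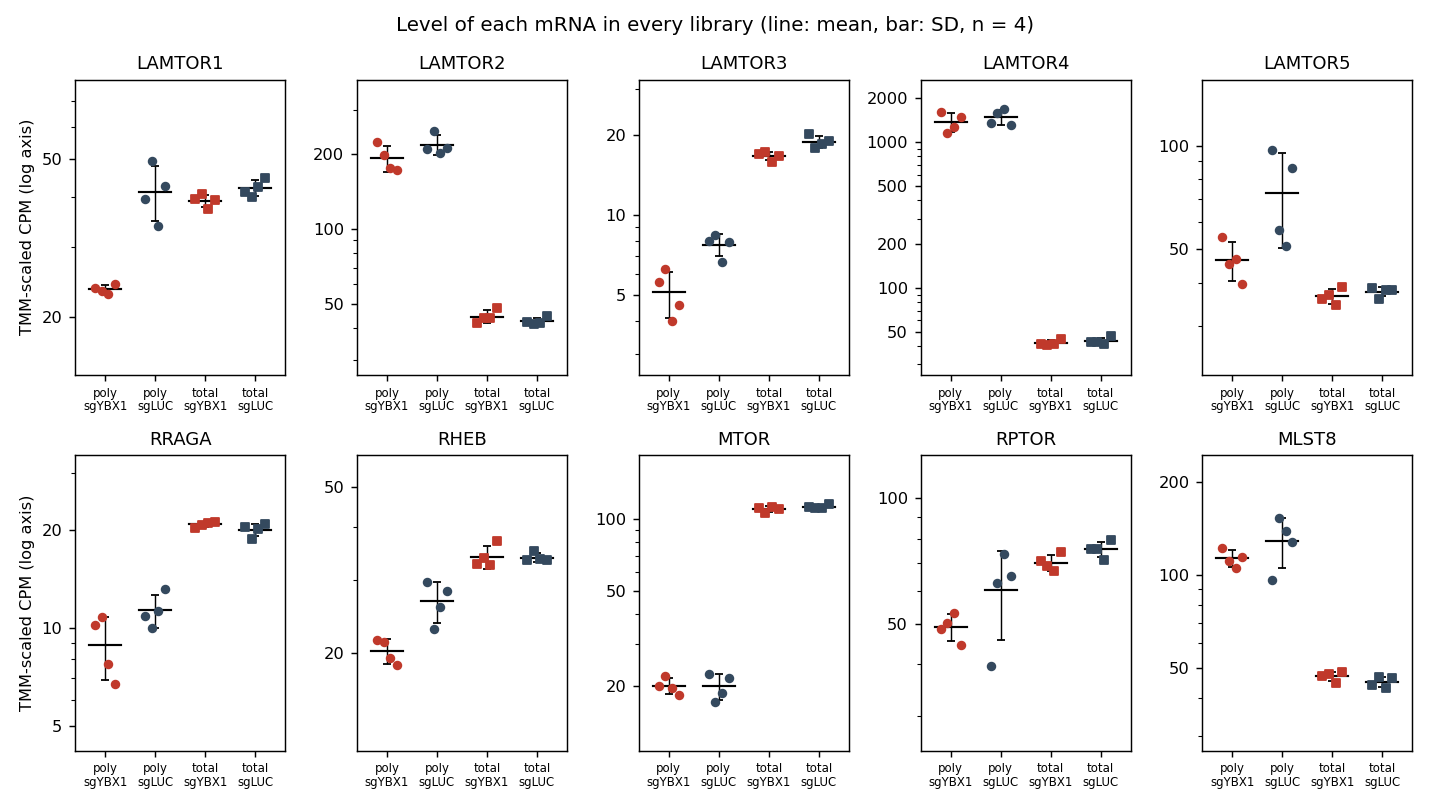
TMM-scaled CPM (log axis, a scale of its own in each panel) of the 10 mRNAs in all 16 libraries, as circles for polysomal RNA and squares for total RNA, red for sgYBX1 and dark blue for sgLUC, with the mean (line) and SD (bar) of 4 libraries. The 4 sgYBX1 polysomal libraries sit below all sgLUC polysomal libraries for LAMTOR1, LAMTOR3 and RHEB, while LAMTOR4 lies at 1155 CPM or more in every polysomal library and at 46.7 CPM or less in every total RNA library.

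The remaining polysomal changes were smaller than the test could separate from the spread between replicates. RRAGA, the GTPase that binds RPTOR when amino acids are sufficient, had 10.2, 10.8, 7.73 and 6.71 CPM with sgYBX1, against 10.9, 10.0, 11.3 and 13.1 CPM with sgLUC (-0.34 ± 0.18, adjusted p = 0.180). RRAGA passed in a fit of all 16 libraries (adjusted p = 0.0355). That fit shares its spread between the fractions (coefficient of variation 0.119), which is too narrow for polysomal RNA (0.188). RPTOR, the subunit that recognises substrates and the Rag GTPases, averaged 49.0 ± 3.69 CPM with sgYBX1 and 60.2 ± 14.5 CPM with sgLUC (-0.28 ± 0.14, adjusted p = 0.157). The sgLUC value of RPTOR leaned on a single library, since replicate 1 had 39.6 CPM and the other sgLUC libraries 62.5 to 73.5 CPM. Without that library the change was -0.43 and passed the test (adjusted p = 0.00586).

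LAMTOR2 averaged 192 ± 23.2 CPM with sgYBX1 and 218 ± 20.2 CPM with sgLUC in polysomal RNA, with a 95% interval of its log2 change from -0.40 to 0.06. MLST8, which stabilises the kinase domain and is shared with mTORC2, averaged 113 ± 7.17 CPM with sgYBX1 and 129 ± 24.0 CPM with sgLUC. For LAMTOR4 the interval ran from -0.33 to 0.16. MTOR had 20.0, 22.1, 19.5 and 18.4 CPM with sgYBX1, against 22.4, 17.1, 18.6 and 21.6 CPM with sgLUC. The kinase mRNA itself was thus at overlapping levels in polysomal RNA of both guides, with a change of 0.02 ± 0.14 and an interval from -0.26 to 0.29, and the sign of that change turned with the scaling. An interval of this width does not show that the level was the same.

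These counts depend on the scaling. With library totals alone, without TMM factors, the median of all tested genes moved to -0.18 in polysomal RNA. Then 8 of the 10 genes were called lower, with LAMTOR2, RRAGA, RPTOR and MLST8 added. Of the 12517 tested genes, 2618 were called lower under library totals, where TMM scaling gave 1162. LAMTOR4 and MTOR were not called in any of 15 alternatives, with adjusted p of at least 0.0800 for LAMTOR4 and 0.509 for MTOR. Over all tested genes, 26.2% of the calls were then higher, where TMM scaling gave 55.5%. LAMTOR1, LAMTOR3, LAMTOR5 and RHEB were called lower under TMM, under size factors by relative log expression and under library totals.

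In total RNA the same mRNAs hardly differed between the guides. LAMTOR3 was the only 1 of 10 genes called, at 88.9% of its sgLUC level, where 16.3% of all tested genes were called in either direction, 8.87% lower and 7.43% higher. LAMTOR3 had 17.0, 17.3, 15.9 and 16.8 CPM in sgYBX1 total RNA, against 20.3, 17.9, 18.5 and 19.0 CPM in sgLUC total RNA, a change of -0.17 ± 0.05 (edgeR adjusted p = 0.0233). The groups did not overlap, and 10.0% of all tested genes were likewise lower without overlap, but the call held in 9 of 15 alternatives. It was lost when sgYBX1 replicate 1 or 3, or sgLUC replicate 1 or 4, was left out (adjusted p 0.0511 to 0.0820), with library totals alone (0.0577) and in a fit of all 16 libraries (0.943). The spread that the last fit shares between the fractions is too wide for total RNA.

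The other 9 genes had fitted changes from -0.10 to 0.07 in total RNA, and the SE of each was 0.05 or less. LAMTOR1, the gene with the largest polysomal change, had 39.5, 40.7, 37.4 and 39.3 CPM in sgYBX1 total RNA, against 41.4, 40.1, 42.5 and 44.7 CPM in sgLUC total RNA (-0.09 ± 0.04, adjusted p = 0.125). MTOR averaged 110 ± 2.78 CPM with sgYBX1 and 112 ± 2.08 CPM with sgLUC (-0.02 ± 0.03, adjusted p = 0.767). RHEB averaged 34.0 ± 2.17 CPM with sgYBX1 and 33.9 ± 0.849 CPM with sgLUC (adjusted p = 0.869). In these libraries, differences of the size seen in polysomal RNA for LAMTOR1, LAMTOR5 and RHEB lay outside the 95% intervals of the total RNA changes.

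**Figure D2:**
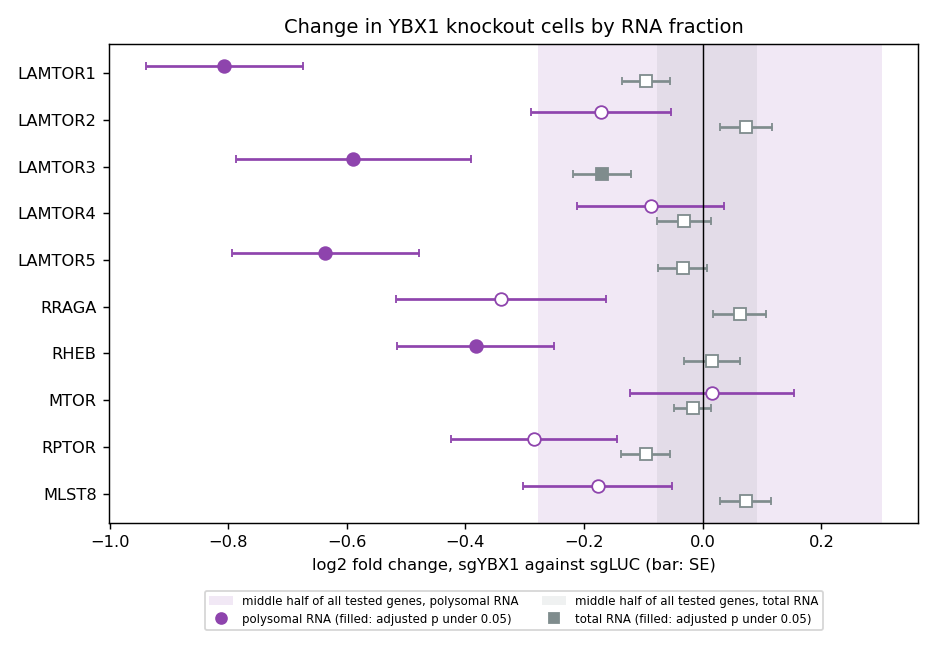
Log2 fold change of sgYBX1 against sgLUC (x axis, bars are SE) for each of the 10 mRNAs in polysomal RNA (purple circles) and total RNA (grey squares), filled where the adjusted p was under 0.05, with shaded bands for the interquartile range of all tested genes. LAMTOR1, LAMTOR5, LAMTOR3 and RHEB lie left of the polysomal band at -0.81, -0.64, -0.59 and -0.38, as do the uncalled RRAGA at -0.34 and RPTOR at -0.28, while the total RNA changes lie between -0.17 and 0.07.

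Whether the polysomal change differed from the total RNA change was tested directly, over all 16 libraries. The difference passed the test for LAMTOR1, LAMTOR5 and RHEB, each lower in the polysomal fraction than its total RNA change. That is 3 of 10 genes, all lower, where 16.7% of all tested genes were called, 6.89% lower and 9.84% higher. The median over the 10 genes was -0.32, with -0.04 over all tested genes. LAMTOR1 had a difference of -0.71 ± 0.13 on the log2 scale (edgeR adjusted p = 0.000902) and was called in all 23 alternatives.

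LAMTOR5 had a difference of -0.60 ± 0.20 (adjusted p = 0.0442). Its call was kept in 9 of 23 alternatives. It was lost with size factors by relative log expression (0.0519) and when any 1 of the 8 total RNA libraries was left out (0.0572 to 0.0874), and also without sgYBX1 polysomal replicate 2, 3 or 4 (0.0680, 0.0715 and 0.101) or sgLUC polysomal replicate 1 or 4 (0.111 and 0.105). Without sgLUC polysomal replicate 1, the highest library, the difference was -0.40. RHEB had a difference of -0.40 ± 0.12 (adjusted p = 0.0299) and was called in 12 of 23 alternatives. It was lost without sgYBX1 total replicate 2 or 4, sgLUC total replicate 1, 3 or 4, sgYBX1 polysomal replicate 3 or 4, or sgLUC polysomal replicate 1 or 4 (0.0546 to 0.0801), in limma voom with a variance weight per group (0.0641) and with the replicate number as a block (0.0614). Of the 3 calls, only that for LAMTOR1 did not hang on the choice of libraries or tool.

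LAMTOR3, lower in both fractions, had a difference of -0.42 ± 0.17 that did not pass (adjusted p = 0.0987). It passed when sgYBX1 polysomal replicate 2 or sgLUC polysomal replicate 3 was left out (0.0284 and 0.0438). For RRAGA the difference was -0.40 ± 0.17 (adjusted p = 0.119), and it passed without sgYBX1 polysomal replicate 2 (0.0398). LAMTOR2, RPTOR and MLST8 did not pass either, at -0.24 ± 0.12, -0.19 ± 0.17 and -0.25 ± 0.14. LAMTOR2 passed without sgYBX1 polysomal replicate 1 (0.0422), and RPTOR and MLST8 passed without sgLUC polysomal replicate 1 (0.0349 and 0.0190). MTOR (0.03 ± 0.12) and LAMTOR4 (-0.06 ± 0.14) were not called in any alternative. With library totals alone, the median of all tested genes moved to -0.23 and 7 of the 10 genes were called lower. Of the 12517 tested genes, 2694 were then called lower, where TMM scaling gave 863. Under library totals 20.1% of all calls were higher, where TMM scaling gave 58.8%. YBX1 mRNA went the other way, with a difference of 0.33 ± 0.10 (adjusted p = 0.0229). It was called in 18 of 23 alternatives, with differences between 0.13 and 0.41.

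The mRNAs of this pathway also stood very differently between polysomal and total RNA in cells of either guide. LAMTOR4 was 32.1-fold higher in polysomal than in total RNA of sgYBX1 cells and 34.3-fold higher in sgLUC cells. LAMTOR2 was 4.19-fold higher with sgYBX1 and 5.10-fold with sgLUC, and MLST8 was 2.35-fold higher with sgYBX1 and 2.87-fold with sgLUC. At the other end, MTOR in polysomal RNA was at 17.7% of its total RNA level with sgYBX1 and at 17.8% with sgLUC. All 10 genes were called in sgYBX1 cells and 8 of 10 in sgLUC cells, where 84.7% and 79.6% of all tested genes were called, so a call by itself says little here and the size is what sets members apart.

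LAMTOR4 had 1625, 1155, 1272 and 1494 CPM in sgYBX1 polysomal RNA, against 41.4, 40.6, 41.2 and 45.1 CPM in sgYBX1 total RNA. In sgLUC cells it had 1359, 1595, 1679 and 1305 CPM in polysomal RNA, against 42.5, 42.5, 41.4 and 46.7 CPM in total RNA. No other of the 10 genes came near this gap, and the log2 fold changes of 5.00 ± 0.10 and 5.10 ± 0.11 lay at the 99.4th and 99.7th percentiles of all tested genes. Exons of LAMTOR4 share 356 bases (18.4% of their length) with C7orf43 on the opposite strand. C7orf43 had 251 to 436 counts in each sgYBX1 polysomal library, and LAMTOR4 had 39818 to 51438. Scaled to library totals, C7orf43 averaged 6.98 CPM in polysomal and 23.9 CPM in total RNA of sgYBX1 cells. In sgLUC cells it averaged 11.1 and 21.3 CPM. On that scale the median of all tested genes was also lower in polysomal RNA (-1.15 with sgYBX1, -0.93 with sgLUC). The part of C7orf43 reads in the LAMTOR4 level was not tested.

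LAMTOR2 had 223, 197, 175 and 173 CPM in sgYBX1 polysomal RNA, against 42.1, 44.0, 44.0 and 48.2 CPM in sgYBX1 total RNA. LAMTOR2 and LAMTOR3, the partners of 1 dimer, therefore fell on opposite sides of the interquartile range of all tested genes. LAMTOR3 had a polysomal to total change of -1.74 ± 0.13 with sgYBX1 and -1.29 ± 0.11 with sgLUC, where LAMTOR2 had 2.07 ± 0.08 and 2.35 ± 0.09. The partners LAMTOR4 and LAMTOR5 differed as well, since LAMTOR5 was 1.24-fold higher in polysomal RNA of sgYBX1 cells, a direction that turned under library totals alone (-0.70), and 1.93-fold higher in sgLUC cells.

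LAMTOR1 was at 58.3% of its total RNA level in polysomal RNA of sgYBX1 cells (-0.78 ± 0.07, edgeR adjusted p = 8.99e-09) and did not differ beyond replicate spread in sgLUC cells (-0.03 ± 0.11, adjusted p = 0.825), where its sign turned with the scaling and a fall passed under library totals alone (-0.88). RRAGA, RHEB and RPTOR also stood lower in polysomal RNA of sgYBX1 cells, at 41.6%, 58.0% and 68.0% of total RNA. In sgLUC cells RRAGA was at 56.4% and RHEB at 78.6%, and RPTOR at 79.8% did not pass (adjusted p = 0.0606). RPTOR passed when sgLUC polysomal replicate 1, 3 or 4 was left out (0.0241, 0.0114 and 0.0382). MTOR had 20.0, 22.1, 19.5 and 18.4 CPM in sgYBX1 polysomal RNA, against 111, 106, 113 and 110 CPM in sgYBX1 total RNA. Its 2549-residue product is encoded by the longest of the 10 transcripts.

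**Figure D3:**
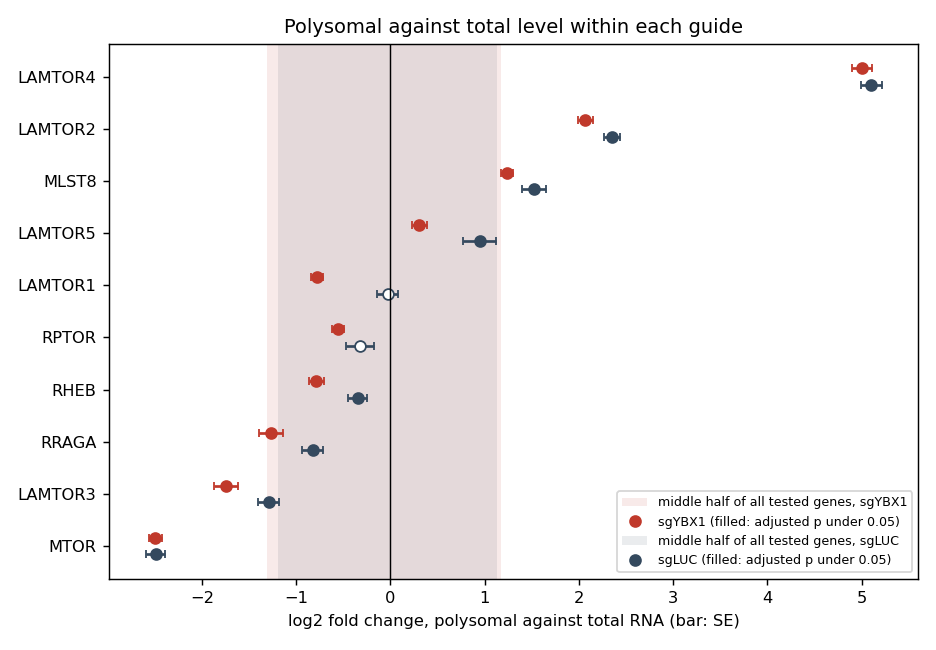
Log2 fold change of polysomal against total RNA (x axis, bars are SE) of the 10 mRNAs in sgYBX1 cells (red) and sgLUC cells (dark blue), filled where the adjusted p was under 0.05, with shaded bands for the interquartile range of all tested genes under each guide. The genes run from LAMTOR4 at 5.00 and 5.10 down to MTOR at -2.50 and -2.49, with sgYBX1 given first, and LAMTOR5 at 0.31 in sgYBX1 cells is the value whose sign turned (-0.70) under library totals alone.

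These fractions were compared after TMM scaling, and the scaling matters more here than between guides. With library totals alone, the median of all tested genes moved to -1.15 in sgYBX1 cells and -0.93 in sgLUC cells, where TMM scaling left it at -0.14 and -0.08. Calls that were higher then made up 25.0% of all calls with sgYBX1 and 26.9% with sgLUC, where they were 47.0% and 48.0% under TMM scaling. LAMTOR4, LAMTOR2 and MLST8 stayed higher in polysomal RNA under library totals, with LAMTOR4 at 3.99 in sgYBX1 cells and 4.24 in sgLUC cells. LAMTOR5 lost its call in sgLUC cells (0.11, adjusted p = 0.608).

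Transcript length moved with this order. The principal transcripts of LAMTOR4 and LAMTOR2 have 605 and 655 bases, those of RPTOR and MTOR 6408 and 8677. The correlations and bins below took the transcript with the longest complete coding sequence of each gene, which can differ from the principal transcript. Over the 10 genes, Spearman's rho between that length and the polysomal to total change was -0.745 with sgYBX1 and -0.806 with sgLUC. This rho describes 10 genes that share libraries and normalization. Over 12432 tested genes with a matched transcript it was -0.255 with sgYBX1 and -0.325 with sgLUC. The matched genes were divided by length into 4 bins of about equal size. In the shortest bin (312 to 1917 bases) the median change was 0.70 with sgYBX1 and 0.87 with sgLUC, and the lower and upper quartiles with sgYBX1 were -0.45 and 1.87. In sgYBX1 cells LAMTOR4 and LAMTOR2 stood above that range. LAMTOR1 and RRAGA, in the same bin by their principal transcripts, stood below it. G and C content of the coding sequence ran the other way, with a rho over the 10 genes of 0.685 with sgYBX1 and 0.661 with sgLUC, and over all matched genes of 0.212 and 0.248. The part of length or base composition in the result was not tested.

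**Figure D4:**
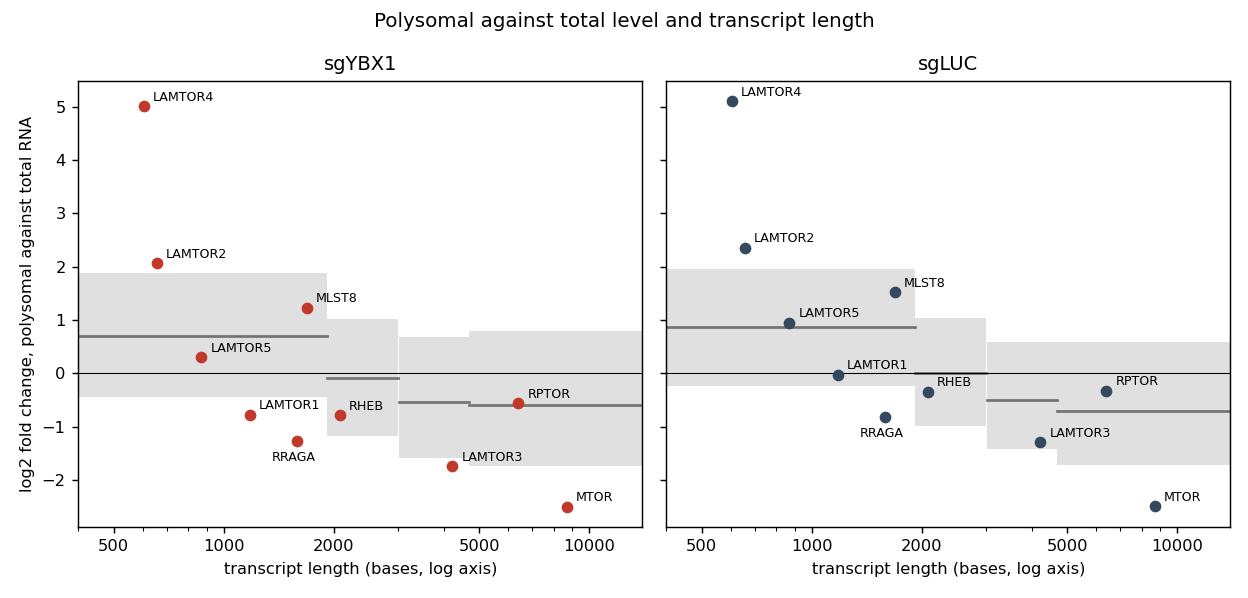
Log2 fold change of polysomal against total RNA (y axis) and length of the principal transcript in bases (x axis, log scale) for the 10 mRNAs in sgYBX1 cells (left) and sgLUC cells (right), with the median (grey line) and interquartile range (grey band) of all matched genes in each of 4 bins of length. The bins use the transcript with the longest complete coding sequence of each gene. LAMTOR4 and LAMTOR2, with 605 and 655 bases, lie above the band of the shortest bin. MTOR, with 8677 bases, lies below the band of the longest.

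Transcript length did not order the knockout changes in the same way. In polysomal RNA, sgYBX1 against sgLUC, rho with length was 0.079 over the 10 genes and 0.213 over all matched genes, again with the longest-coding transcripts. The shortest bin of matched genes had a median change of -0.15 and the longest bin had 0.13. With coding length in its place, rho was 0.309 over the 10 genes and 0.238 over all matched genes. The bin of shortest coding sequences (75 to 879 bases) had a median change of -0.15. It held the 4 genes called lower and also the uncalled LAMTOR2 and LAMTOR4. The part of either length in these changes was not tested. LAMTOR1, LAMTOR5 and RHEB, 3 of the 4 genes called lower, have principal transcripts of 1179, 868 and 2075 bases. Those of the uncalled LAMTOR2 and LAMTOR4 are shorter than each of them. LAMTOR3 has a short coding sequence but a transcript of 4226 bases, most of it (3658 bases) after the stop codon.

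Levels per kilobase of annotated exon allow a rough comparison between genes, and their order in total RNA was the same with either guide. The length used is that of all annotated exons together, which can be far longer than the principal transcript. For MLST8 it was 4323 bases, with a principal transcript of 1691 bases, and for RRAGA it was 1589 bases by either measure. The order of genes below therefore depends on the annotation. In sgYBX1 total RNA, LAMTOR2 was highest at 31.0 ± 1.79 CPM per kb, followed by LAMTOR4 at 21.7 ± 1.05, LAMTOR5 at 15.3 ± 0.754, LAMTOR1 at 14.1 ± 0.503 and RRAGA at 13.1 ± 0.272. MLST8 (10.9 ± 0.371), RHEB (9.62 ± 0.613), MTOR (9.07 ± 0.230), RPTOR (6.81 ± 0.302) and LAMTOR3 (3.96 ± 0.138) followed. The ranges of 4 libraries overlapped between LAMTOR5 and LAMTOR1, between MLST8 and RHEB, and between RHEB and MTOR, so these neighbours did not differ beyond their spread. In sgYBX1 polysomal RNA the same measure ran from 716 ± 110 CPM per kb for LAMTOR4 and 134 ± 16.2 for LAMTOR2 to 1.65 ± 0.127 for MTOR and 1.21 ± 0.239 for LAMTOR3. The subunits of Ragulator, which are built into the complex in equal numbers, thus spanned a far wider range of mRNA level in polysomal RNA than in total RNA.

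The genes around this core were read from 14 lists with 85 genes, all of them tested. In polysomal RNA 15 of the 85 were called lower and 4 higher with sgYBX1, that is 17.6% and 4.71%, against the 9.28% and 11.6% of all tested genes given above. Their median change was -0.17. In total RNA 7 were lower and 5 higher, that is 8.24% and 5.88%, against 8.87% and 7.43% of all tested genes, with a median of -0.01. For the difference between fractions 11 were lower and 3 higher, that is 12.9% and 3.53%, against 6.89% and 9.84%. Counts of a list are a description, and whether a list stood apart from other genes was not tested. Of the genes named from them, NPRL2, FNIP2, PRR5L, SESN3, BLOC1S1, EIF4EBP2 and PRKAB1 were called in polysomal RNA in 8 to 11 of their 14 or 15 alternatives, and the others tried were called in 14 or 15. In total RNA, SESN1 was called in 10 of 15 alternatives and KPTN in 12 of 15.

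Among the proteins that signal amino acids to the Rag GTPases, 2 of 5 GATOR2 genes were called lower in polysomal RNA, MIOS (-0.72 ± 0.20, adjusted p = 0.00839) and SEC13 (-0.47 ± 0.12, adjusted p = 0.00624), which is also a coat protein of vesicles. NPRL2, 1 of 3 GATOR1 genes and part of the GTPase-activating complex for RRAGA, was at -0.37 ± 0.13 (adjusted p = 0.0448). FNIP2, 1 of 3 genes of the folliculin complex, went up, at 0.46 ± 0.17 (adjusted p = 0.0462). SESN3, 1 of 8 amino acid sensors and a member of the sestrin family, which restrains mTORC1, fell in both fractions, to 0.865 CPM in sgYBX1 polysomal RNA against 2.15 CPM in sgLUC polysomal RNA (-1.29 ± 0.43, adjusted p = 0.0283) and by 0.47 on the log2 scale in total RNA. Its relative SESN1 passed as higher in total RNA, at 0.16 ± 0.05 (adjusted p = 0.0212). KPTN of the KICSTOR complex was higher in total RNA (0.23 ± 0.06, adjusted p = 0.0156), and no KICSTOR gene passed in polysomal RNA. No gene among the other Rag GTPases, the TSC complex, or the other mTORC1 subunits and assembly factors was called in either fraction.

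On the lysosomal membrane, the V-ATPase pumps protons into the lumen and binds Ragulator. Of 8 genes of its membrane part and accessory proteins, 4 were called lower in polysomal RNA and 1 higher. ATP6V0D1 (-0.53 ± 0.13), ATP6V0E1 (-0.50 ± 0.12) and ATP6AP2 (-0.34 ± 0.12) were among the lower ones, and ATP6V0A1 (0.47 ± 0.13) was the higher one. The polysomal call of ATP6AP2 was not tried in alternatives, and its fall in total RNA was called in 4 of 15. Of 8 genes of the cytosolic part, ATP6V1H was lower (-0.58 ± 0.13, adjusted p = 0.00229). BORC binds Ragulator and controls where lysosomes sit, and 2 of its 8 genes were called lower, SNAPIN (-1.12 ± 0.24, adjusted p = 0.00124) and BLOC1S1 (-0.50 ± 0.18, adjusted p = 0.0412). SNAPIN had 2.75 ± 0.861 CPM in sgYBX1 polysomal RNA and 6.04 ± 0.829 CPM in sgLUC polysomal RNA, the largest called fall among these lists after SESN3.

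Of the genes that feed growth factor and energy signals into mTORC1, PDPK1, the kinase that activates AKT, was higher in polysomal RNA (0.55 ± 0.14, adjusted p = 0.00478) and PRKAB1, a subunit of AMPK, was lower (-0.49 ± 0.16, adjusted p = 0.0269). In the mTORC2 list, PRR5L was lower in polysomal RNA (-0.89 ± 0.30, adjusted p = 0.0330) and PRR5 higher in total RNA (0.43 ± 0.11, adjusted p = 0.0118). Among 15 effectors of mTORC1, EIF4B, a cofactor of the translation initiation helicase, was lower in both fractions, at -0.61 ± 0.12 in polysomal RNA and -0.44 ± 0.03 in total RNA (adjusted p = 0.000359 and 5.91e-09). EIF4EBP2, a repressor of cap-dependent initiation, was also lower in both, at -0.36 ± 0.12 and -0.21 ± 0.03. LARP1, which binds mRNAs of the translation machinery, was higher in polysomal RNA alone by the test, with 1081 ± 145 CPM with sgYBX1 and 724 ± 105 CPM with sgLUC (0.59 ± 0.12, adjusted p = 0.000991), and its difference between fractions passed as well (0.63 ± 0.13, adjusted p = 0.00270).

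**Figure D5:**
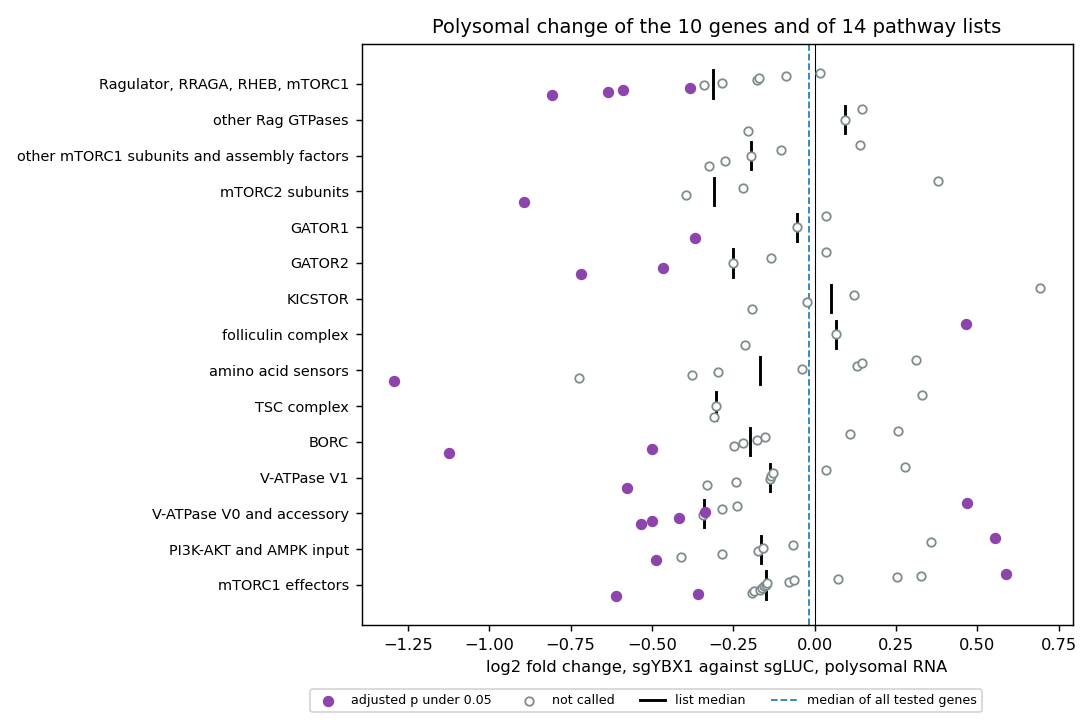
Log2 fold change of sgYBX1 against sgLUC in polysomal RNA (x axis) for the 10 genes of the top line and for the genes of 14 pathway lists, with a point per gene, filled where the adjusted p was under 0.05, a black bar at the median of each list and a dashed line at the median of all tested genes (-0.02). The top line has 4 filled points, all left of 0, and the lists together have 15 to the left and 4 to the right.

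Profiles over the 16 libraries were compared last, as Pearson's r of log2(CPM + 0.5). Among the genes most like the mean of LAMTOR1 to LAMTOR5 were UBL5, TMEM141, COX5B and CDC20, with r from 0.996 to 0.997. Among those most like MTOR were ARFGEF2, NUFIP2, IGF2R and CEP85, with r from 0.998 to 0.999. The points are libraries of 2 fractions, so values of r this high mostly describe the gap between polysomal and total RNA that the genes share.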

How the data were processed

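Total and polysomal RNA of MOLM13 cells (4 groups, 4 libraries each) was poly(A)-selected and sequenced in pairs. The authors deposited a table of raw counts per gene with no normalization. Tools listed by the submitters are DESeq2 1.30.0, featureCounts 2.0.1, STAR 2.7.8a and Trimmomatic 0.36.5, and their build is GRCh38 (submitters' processing notes). The annotation, the strand setting and whether reads or pairs were counted are not given in the sources used here, and 57.9% to 66.4% of counts from 1 to 39 were even. The symbols in that table did not match its Entrez identifiers, except in 11 rows, so genes were found by identifier through a second deposited table. The mean signal that the authors deposited there (scaled counts averaged over libraries) served to check this, with r = 0.989 over 17250 genes. The deposited fold changes and p-values were not used. Libraries of a group differed by more than sampling noise in every pair, so none was treated as a duplicate.

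Genes were kept by filterByExpr (12517). edgeR 4.0.16 (limma 3.58.1, R 4.3.3) with TMM factors gave two-sided quasi-likelihood F tests, over 8 libraries per comparison and over 16 for the difference between fractions. Alternatives were a 16-library fit, DESeq2 1.42.0, size factors by relative log expression, library totals, no filter, a mean of at least 5 CPM, a replicate block, limma voom for the difference, and leaving out each library. Intervals of 95% are estimates ± 1.96 SE. Steps were tested on simulated data. Named genes are the 10 members, YBX1, up to 3 genes per list with the smallest adjusted p under 0.05 in polysomal RNA and up to 2 in total RNA, and the 5 most similar profiles, of which some are not reported here. The members, lists and tests were chosen with earlier results of these data known. Transcript features are from GENCODE v29, and figures were drawn with matplotlib 3.10.9.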

Additional observations from a re-analysis of the deposited data

Results flagged for a closer look

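LAMTOR4 in sgYBX1 total RNA had a library, replicate 4, that stood apart at 45.1 CPM, where the next highest had 41.4 CPM. RHEB in sgLUC total RNA had a library, replicate 2, at 35.2 CPM, where the next highest had 33.5 CPM. In both cases the gap took more of the range of the group than Dixon's critical value for 4 samples allows, with shares of 0.833 and 0.935. Among the 40 sets of 4 libraries looked at, chance alone flags about 1 in 20.

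The knockout change differed between polysomal and total RNA for LAMTOR1, by -0.71 on the log2 scale, for LAMTOR5, by -0.60, and for RHEB, by -0.40, each by the edgeR test of the difference itself.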

How the results depend on the processing

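LAMTOR1 was called lower in polysomal RNA and in the difference between fractions under every alternative run, and LAMTOR5 was called lower in polysomal RNA under every alternative. A fit of all 16 libraries called 0 of the 10 genes and 136 genes in total RNA (2040 over 8 libraries) and 4639 genes in polysomal RNA (2613). Its shared spread is too wide for total RNA and too narrow for polysomal RNA. With library totals alone, 0 of the 10 genes were called in total RNA, 8 in polysomal RNA and 7 for the difference. For the difference 3371 genes were called in all (2095 with TMM), of which 2694 were lower. In polysomal RNA 2618 genes were called lower, and in total RNA 2180 were called in either direction. Signs that turned under library totals were those of LAMTOR4 (0.0013) and MTOR (0.015) in total RNA, MTOR in polysomal RNA (-0.15) and in the difference (-0.16), and LAMTOR5 (-0.70) and YBX1 (-0.74) for polysomal against total RNA in sgYBX1 cells. In sgLUC cells polysomal against total RNA turned to 0.035 for LAMTOR1 and 0.044 for YBX1 under DESeq2 and under size factors by relative log expression. The causes were not tested. Leaving out 1 library gave 0 to 1 of the 10 genes and 1324 to 2885 genes in total RNA, 2 to 4 and 1705 to 2863 in polysomal RNA, and 1 to 4 and 1521 to 2734 for the difference. The lowest of these counts came without sgYBX1 replicate 3 in total RNA and without sgYBX1 replicate 4 in polysomal RNA. It turned the sign of changes near 0, with ranges of -0.066 to 0.0051 for LAMTOR4 and -0.029 to 0.043 for RHEB in total RNA, -0.17 to 0.010 for LAMTOR4 and -0.046 to 0.090 for MTOR in polysomal RNA, -0.14 to 0.020 for LAMTOR4 and -0.032 to 0.12 for MTOR in the difference, and -0.16 to 0.029 for LAMTOR1 between the fractions in sgLUC cells.

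Whether replicate numbers pair the libraries was not settled by the counts. Deviations of same-numbered libraries correlated between -0.25 and 0.47, and in no pair of groups did every number exceed 0.1. In every pair of groups the best match was the library of the same number for some numbers but not for all. This check cannot exclude that same-numbered libraries share a culture. With the number as a replicate block, 2057 genes were called in total RNA, 2616 in polysomal RNA and 1968 for the difference, where RHEB lost its call (-0.39, adjusted p = 0.0614 in edgeR) and between the fractions in sgLUC cells RPTOR gained one (-0.36, adjusted p = 0.0203 in edgeR). Polysomal replicate spread and the 125 to 249 counts of LAMTOR3 limit what this depth can separate.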

Other observations

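The neighbours that share exon bases with LAMTOR4 and MLST8 on the opposite strand had levels of their own. C7orf43, scaled to library totals, averaged 6.98 ± 1.22 CPM in sgYBX1 polysomal RNA and 11.1 ± 3.39 CPM in sgLUC polysomal RNA, and 23.9 ± 0.995 CPM and 21.3 ± 2.92 CPM in total RNA of the same guides (SD, n = 4 each). BRICD5, which shares 164 bases with MLST8, averaged 4.07 ± 0.577 CPM with sgYBX1 and 4.34 ± 1.49 CPM with sgLUC in polysomal RNA.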
